A study of Caenorhabditis elegans with 2 samples.

Results

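Sites near microRNA genes were examined in a ChIP-seq profile of the homeodomain protein UNC-62, in which DNA recovered with a tagged protein is sequenced. The sites are the entries of the peak list called on the pooled replicates whose summit, the middle of the interval, lay within 2 kb of the 5′ end of an annotated microRNA gene on a nuclear chromosome. They numbered 283 of the 30000 entries (0.943%), and no signal value was used to choose them. The only group was whole L1 larvae, the first larval stage, of mixed sex from Caenorhabditis elegans strain OP600, in 2 biological replicates. Per the labels, OP600 carries the unc119(ed3) allele and the transgene wgIs600, in which unc-62 is tagged with TY1, EGFP and FLAG and which also holds unc119, and no mutation of the endogenous unc-62 is named. The regulatory sequence of the transgene, its copy number and the number of animals per replicate are not stated in the labels. With 1 group there was no comparison between conditions, and the files hold no expression values, so neither the stage nor the cell types could be checked against markers.

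MicroRNAs are short RNAs cut from hairpin precursors that guide Argonaute proteins to messenger RNAs, and the seed near the 5′ end of the mature strand decides most of the targets. In C. elegans, lin-4 and let-7 time the larval divisions, the mir-35 and mir-51 families are needed in the embryo, mir-71 acts in lifespan, and lsy-6 sets the asymmetry of a pair of taste neurons. Many microRNA genes lie inside introns of protein-coding host genes, so an entry near a microRNA may also lie at the 5′ end of its host or of a neighbour. UNC-62 is the worm member of the Meis class and works with Pbx and Hox proteins.

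Mature strands are shown for microRNAs that the results below turn on, grouped by seed, with the seed (bases 2 to 8) in capitals. All are from the RefSeq genome sequence of WBcel235, at the mature-strand positions of its annotation. The first, mir-86, lay near 1 of the strongest entries and shares its seed with mir-785.
mir-86: uAAGUGAAugcuuugccacaguc
The mir-51 family shares 1 seed among 6 genes, and all 6 had an entry.
mir-52: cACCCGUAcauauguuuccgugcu
mir-53: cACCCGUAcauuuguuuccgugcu
The seed of mir-90 is shared with mir-50 and mir-62, and all 3 genes had an entry.
mir-90: uGAUAUGUuguuugaaugccccu
The bantam-type microRNAs carry the seed of mir-58a, held by that gene alone, or the seed of mir-80, shared by 6 genes of which 2 had an entry.
mir-58a: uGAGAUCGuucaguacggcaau
mir-80: uGAGAUCAuuaguugaaagccga
The mir-64 family shares 1 seed among 5 genes, all with an entry.
mir-229: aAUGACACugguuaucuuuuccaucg
mir-64: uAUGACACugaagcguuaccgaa
The let-7 seed is shared by 5 genes, of which let-7 and mir-84 had an entry and mir-48, mir-241 and mir-795 had none.
let-7: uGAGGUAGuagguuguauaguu
mir-84: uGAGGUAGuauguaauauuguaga
mir-48: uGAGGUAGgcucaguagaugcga
The lin-4 seed is shared with mir-237, which had an entry while lin-4 had none.
lin-4: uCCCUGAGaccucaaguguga
mir-237: uCCCUGAGaauucucgaacagcu
The sequence of mir-228, which had 5 entries, follows.
mir-228: aAUGGCACugcaugaauucacgg

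The windows of 151 bp centred on 6 summits show the sequence under strong entries, in the build ce11 (WBcel235). Capitals mark every TGACA, the shorter Meis core, and every GAGAGA, a repeat motif, on either strand. Each window is named by its nearest microRNA gene.
mir-2216 (chrII:10868903-10869053, + strand): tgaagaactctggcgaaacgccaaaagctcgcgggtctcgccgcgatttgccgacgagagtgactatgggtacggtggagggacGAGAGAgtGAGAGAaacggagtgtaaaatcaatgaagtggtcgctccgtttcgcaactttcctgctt
mir-5549 (chrIII:6972033-6972183, + strand): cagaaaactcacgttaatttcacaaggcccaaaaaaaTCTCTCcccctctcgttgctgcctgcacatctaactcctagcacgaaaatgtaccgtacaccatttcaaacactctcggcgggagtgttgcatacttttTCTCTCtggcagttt
mir-86 (chrIII:11935761-11935911, + strand): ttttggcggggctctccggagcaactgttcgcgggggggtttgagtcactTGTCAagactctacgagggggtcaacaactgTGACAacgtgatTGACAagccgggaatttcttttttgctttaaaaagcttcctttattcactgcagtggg
mir-52 (chrIV:14032778-14032928, + strand): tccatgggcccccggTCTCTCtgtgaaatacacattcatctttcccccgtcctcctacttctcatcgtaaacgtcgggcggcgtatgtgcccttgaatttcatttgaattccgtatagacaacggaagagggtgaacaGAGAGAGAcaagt
mir-62 (chrX:12690557-12690707, + strand): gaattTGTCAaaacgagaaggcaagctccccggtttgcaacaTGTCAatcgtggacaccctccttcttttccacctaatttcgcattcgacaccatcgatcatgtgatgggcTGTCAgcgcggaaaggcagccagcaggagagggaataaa
mir-228 (chrIV:5561471-5561621, + strand): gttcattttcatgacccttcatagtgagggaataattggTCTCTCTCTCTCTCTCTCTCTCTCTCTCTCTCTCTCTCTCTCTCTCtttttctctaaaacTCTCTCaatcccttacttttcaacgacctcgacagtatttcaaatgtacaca
The mir-86 window held 3 Meis cores at 25, 6 and 18 bp from the summit, and the mir-62 window held 3 cores, of which the one 37 bp from the summit is part of the Meis hexamer TGACAG. The mir-2216, mir-5549 and mir-52 windows held GAGAGA on 1 strand or the other and no Meis core. The mir-228 window held a long run of this repeat across the summit.

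Entries fell near microRNA genes at a density close to that of the whole genome. The stretches within 2 kb of the 261 microRNA 5′ ends covered 872121 bp (0.870% of the nuclear genome) and held 324 entries per Mb, against 299 per Mb over the whole genome. An entry lay within 2 kb of 178 microRNA genes (68.2%, exact 95% binomial interval 62.2 to 73.8%), against 13847 of 19973 protein-coding genes (69.3%). Around tRNA, snRNA and snoRNA genes the count was 833 of 1087 (76.6%). The lists have a fixed length and include weak entries, so an entry is not by itself evidence of binding.

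The signal, the authors' own enrichment value per entry, had a median of 12.9 near microRNA genes (range 9.06 to 56.2), against 11.9 over all pooled entries (range 9.05 to 128). The median pooled rank was 11373, against 15000.5 over all entries. Of the entries near microRNA genes, 23 ranked 1000 or better (8.13%, interval 5.22 to 11.9%), against 3.33% of all entries by construction. The 142 summits upstream of the nearest microRNA 5′ end had a median signal of 13.2, and the 141 downstream had 12.6. The GC content within 100 bp of the summit had a median of 34.3%, against 32.3% over all entries. At the edge of the rule, the 3 entries just inside 2 kb, near mir-1829b, mir-85 and mir-52, had signals of 9.34, 13.98 and 16.9. The 3 just outside, near mir-81, mir-392 and mir-261, had 19.4, 10.3 and 9.55.

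IDR peaks, the entries kept by the authors' threshold on the irreproducible discovery rate, lay near mir-2216, mir-5549, mir-71, mir-354 and mir-86. These 5 were 1.77% of the entries near microRNA genes (interval 0.576 to 4.07%), against 0.397% of all pooled entries. Among entries within 2 kb of a protein-coding 5′ end the share was 87 of 17178 (0.506%), and near tRNA, snRNA and snoRNA genes it was 18 of 1299 (1.39%). The 5 peaks put 6 microRNA genes within 2 kb, since mir-86 and mir-8211 share one. Signals of the lists have no stated common scale, so lists are set side by side by rank.

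**Figure D1:**
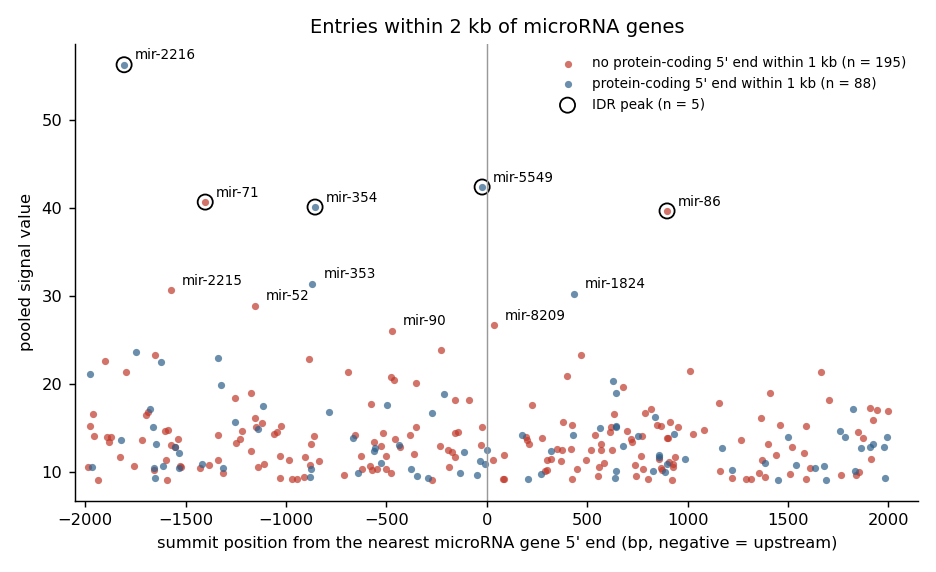
Pooled signal value (y axis) of each entry against the position of its summit from the nearest microRNA gene 5′ end (x axis, bp, negative upstream), coloured by whether a protein-coding 5′ end lay within 1 kb (88 entries) or not (195 entries). The 5 IDR peaks are circled at 39.6 to 56.2, and most of the other points lie between 9 and 20 on both sides of 0.

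The strongest entry (chromosome II, 10868810 to 10869145) had a pooled signal of 56.2 and ranked 25. Its summit lay 1806 bp upstream of mir-2216, 258 bp from the 5′ end of the host gmps-1, which encodes GMP synthetase, and 218 bp upstream of cap-2, which encodes an actin capping subunit. It ranked 713 in replicate 1 (signal 13.4) and 22 in replicate 2 (signal 39.7). Both 5′ ends were thus nearer to the summit than the microRNA was.

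The entry near mir-5549 (chromosome III, 6971940 to 6972275; pooled signal 42.3, rank 53) had its summit 23 bp upstream of the microRNA and 145 bp upstream of rfc-4, a replication factor C subunit gene. It ranked 26 in replicate 2 (signal 38.2) and met no entry in replicate 1, so its place rests on 1 replicate list. No coding gene holds mir-5549.

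The entry upstream of mir-71 (chromosome I, 9381254 to 9381589; pooled signal 40.6, rank 59) lay in an intron of the host ppfr-1, which encodes a regulatory subunit of protein phosphatase 4. Its summit was 1402 bp upstream of mir-71 and 8560 bp from the host 5′ end, or 8162 bp from the nearest annotated coding transcript start. It ranked 871 in replicate 1 (signal 13.0) and 80 in replicate 2 (signal 27.2).

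The entry near mir-354 (chromosome I, 14469178 to 14469513; pooled signal 40.1, rank 62) lay 855 bp upstream of the microRNA. It was 243 bp from the 5′ end of the host rps-20, a ribosomal protein gene, and 154 bp upstream of ekl-4. Its ranks were far apart, 13604 in replicate 1 (signal 7.30) and 68 in replicate 2 (signal 28.7).

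The entry near mir-86 (chromosome III, 11935668 to 11936003; pooled signal 39.6, rank 65) lay 898 bp downstream of the microRNA 5′ end, in an intron of the host Y56A3A.7. The host 5′ end was 11183 bp away, and the nearest coding 5′ end, of the dolichol kinase gene dolk-1, was 2197 bp away. It ranked 578 in replicate 1 (signal 13.8) and 127 in replicate 2 (signal 23.2), with replicate summits 2 and 4 bp from the pooled one. The mir-86 and mir-71 entries were thus the 2 IDR peaks with no protein-coding 5′ end within 1 kb.

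The next strongest entries fell below the IDR threshold, whose lowest pooled signal was 35.0. The entry at mir-353 had a pooled signal of 31.4 (rank 173), ranked 5683 in replicate 1 and 179 in replicate 2, and lay 109 bp upstream of its host, the ribosomal protein gene rpl-24.1. A small RNA gene lay within 300 bp of that summit. The entry at mir-2215 had a pooled signal of 30.6 (rank 188), ranked 95 in replicate 2 and had no replicate 1 entry, and it lay 2881 bp upstream of mrpl-20, a mitochondrial ribosomal protein gene. The entry at mir-1824 had a pooled signal of 30.2 (rank 196) and lay 99 bp upstream of Y87G2A.18, which holds the microRNA on the opposite strand. It ranked 37 in replicate 1 (signal 19.95) and 238 in replicate 2 (signal 20.1), the best replicate 1 rank of any entry near a microRNA gene.

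The strongest entry at mir-52 had a pooled signal of 28.9 (rank 234), 1155 bp upstream of the microRNA in intergenic sequence, and the nearest coding 5′ end was 10927 bp away. It ranked 211 in replicate 2 and had no replicate 1 entry. At mir-8209 the summit lay inside the microRNA gene record, 36 bp past its 5′ end and 3263 bp upstream of jph-1, which encodes junctophilin. That entry had a pooled signal of 26.7 (rank 308) and ranked 10875 in replicate 1 and 86 in replicate 2. Its replicate 1 summit lay 207 bp from the pooled one, so that match is loose. The mir-90 entry had 26.02 (rank 352), lay 470 bp upstream of the microRNA in an intron of the host K01F9.2, 2574 bp from the host 5′ end, and ranked 231 in replicate 2 with no replicate 1 entry.

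Pooled signals of the remaining 9 of the 20 strongest lay between 21.5 and 23.9. The 2 entries of mir-58a flanked the microRNA, 228 bp upstream (23.9) and 471 bp downstream (23.2), in an intron of Y67D8A.2. They lay 10586 and 11285 bp from the 5′ end of that host, and 3825 and 3126 bp from the nearest annotated start of its coding transcripts. The entries at mir-356a (23.6, 59 bp inside the ubiquinone synthesis gene coq-5), mir-2214 (23.0, 102 bp upstream of spot-1 and 223 bp from the host B0361.11) and mir-1833 (22.4, 6 bp inside Y41E3.7 and 858 bp from the host qars-1, the glutaminyl-tRNA synthetase gene) lay at coding 5′ ends. Those at mir-244 (23.2, in an untranslated exon of the chromatin remodeller gene chd-7), mir-47 (22.9), mir-2 (22.6, in an intron of ppfr-1) and a second site at mir-71 (21.5) lay between 3193 and 15215 bp from one.

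**Figure D2:**
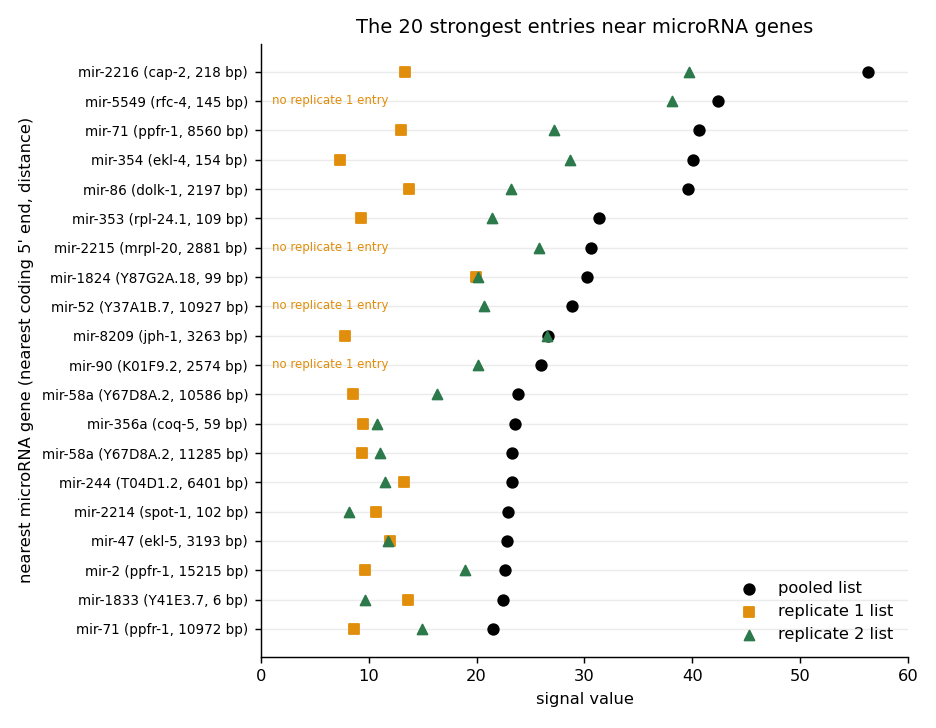
Signal value (x axis) of the 20 strongest entries near microRNA genes in the pooled list and of the best-ranked overlapping entry in each replicate list, one entry a line, with the nearest coding gene and its 5′ distance in brackets. In 4 entries no replicate 1 value exists, and the pooled values run from 21.5 to 56.2.

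Most entries near microRNA genes did not lie at a coding 5′ end. A protein-coding 5′ end lay within 1 kb of 88 summits (31.1%, interval 25.7 to 36.8%), against 36.2% of all pooled entries. For 26 entries (9.19%) such an end belonged to a gene that holds the microRNA, on either strand, and for 62 (21.9%) to neighbours alone. The other 195 (68.9%) had neither. Among the 20 strongest, 6 had a host 5′ end within 1 kb (mir-2216, mir-354, mir-353, mir-1824, mir-2214 and mir-1833), 2 had a neighbour's alone (mir-5549 and mir-356a) and 12 had neither.

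The summit was nearer to the microRNA 5′ end than to a coding 5′ end in 205 entries (72.4%, interval 66.8 to 77.6%), which the 2 kb rule itself favours. The microRNA 5′ end is that of the annotated gene record and was not checked against a transcription start. These distances are thus no comparison of promoters. With the starts of all annotated coding transcripts the share was 66.8%. A coding transcript start lay within 1 kb of 107 summits (37.8%), against 43.3% of all entries. Only the microRNA 5′ end lay within 1 kb of 110 summits, and 85 had neither kind within 1 kb. Median pooled signals of these classes were close, with 12.7 at coding 5′ ends, 12.6 at a microRNA 5′ end alone and 13.7 at neither. Over all entries the medians were 12.0 within 1 kb of a coding 5′ end and 11.8 farther away.

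**Figure D3:**
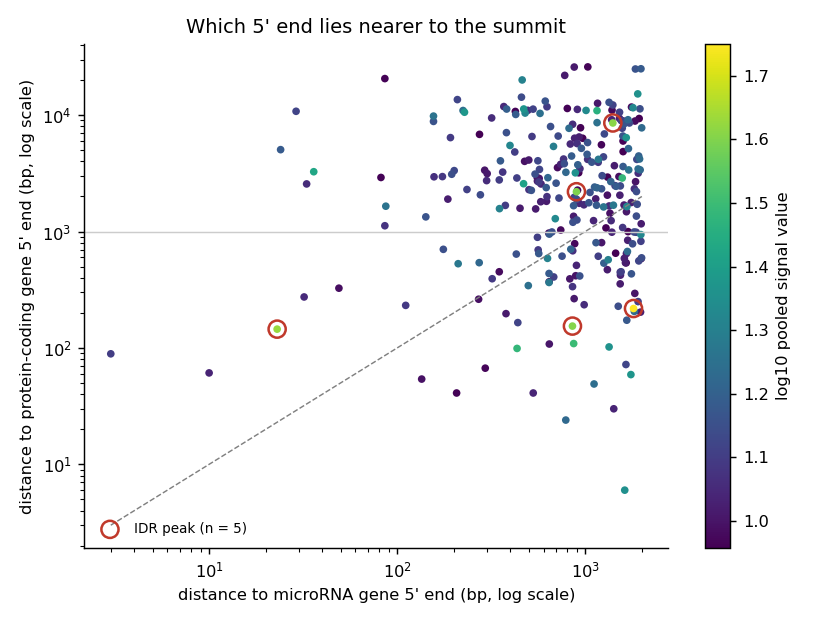
Distance from each of the 283 summits to the nearest microRNA 5′ end (x axis, bp, log scale) and to the nearest protein-coding 5′ end (y axis, bp, log scale), coloured by log10 of the pooled signal, with the 5 IDR peaks circled. Points above the dashed line of equal distance (205 entries) are nearer to the microRNA, and the grey line marks 1 kb.

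Intergenic sequence, relative to protein-coding genes, held 143 summits (50.5%, against 41.4% of all entries). Introns held 96 (33.9%, against 36.9%), coding exons 29 (10.2%, against 15.9%) and untranslated exons 15 (5.30%, against 5.87%). The summit lay inside a microRNA gene record in 5 entries, at mir-8209, mir-4920, let-7, mir-1019 and mir-229, with pooled signals of 26.7, 12.5, 11.7, 11.3 and 9.19. A summit in the record was thus strong at mir-8209 only among these 5. The names mir-4920 and mir-1019, and that of mir-253 below, were chosen after their values were seen. A tRNA, snRNA or snoRNA gene lay within 300 bp of 9 summits (3.18%, against 1.27% of all entries), among them 3 at mir-237 and 1 at mir-353, and its part in these entries was not tested.

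The count of microRNA genes with an entry varied by chromosome. On chromosome III 25 of 27 genes did, and on chromosome V 12 of 28. The strongest entry on V had a pooled signal of 15.1, near mir-253, against 56.2 on II, 42.3 on III, 40.6 on I, 28.9 on IV and 22.9 on X. Chromosome V held 28 of the 261 microRNA genes, 5.30% of the entries near microRNA genes and 18.6% of all entries. Of microRNA genes inside a coding gene on the same strand, 52 of 74 (70.3%) had an entry, of those inside one on the opposite strand only, 22 of 32 (68.8%), and of those in none, 104 of 155 (67.1%).

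Replicate support was uneven. An entry of replicate 1 met 173 of the 283 (61.1%, against 59.0% of all pooled entries), and an entry of replicate 2 met 192 (67.8%, against 61.7%). Entries of both replicates met 99 (35.0%, interval 29.4 to 40.9%), against 30.4% of all pooled entries. Neither replicate had an entry at 17 (6.01%, against 9.72%). An overlap of at least 1 bp counted, and 27 of the 283 overlap one another, so 11 replicate 1 entries and 12 replicate 2 entries were each matched more than once. Replicate 1 summits lay within 100 bp of 120 pooled summits (42.4%, against 43.0% of all entries), and replicate 2 summits within 100 bp of 147 (51.9%, against 47.7%).

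The strongest entries mostly ranked better in replicate 2. Of the 20 strongest, 15 had a better rank in replicate 2 or no replicate 1 entry, and their median rank was 3865 in replicate 1 (16 entries, 37 to 13604) and 234.5 in replicate 2 (20 entries, 22 to 10174). The entries at mir-244, mir-2214, mir-47, mir-1833 and mir-1824 ranked better in replicate 1. Across the 99 entries in both lists, Spearman's rho of the replicate signals was 0.211 and Pearson's r 0.295, and across 9129 such pooled entries rho was 0.111 and r 0.337; entries of 1 pair of libraries are not independent. The pooled list weighs the replicates by depths that are unknown here.

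**Figure D4:**
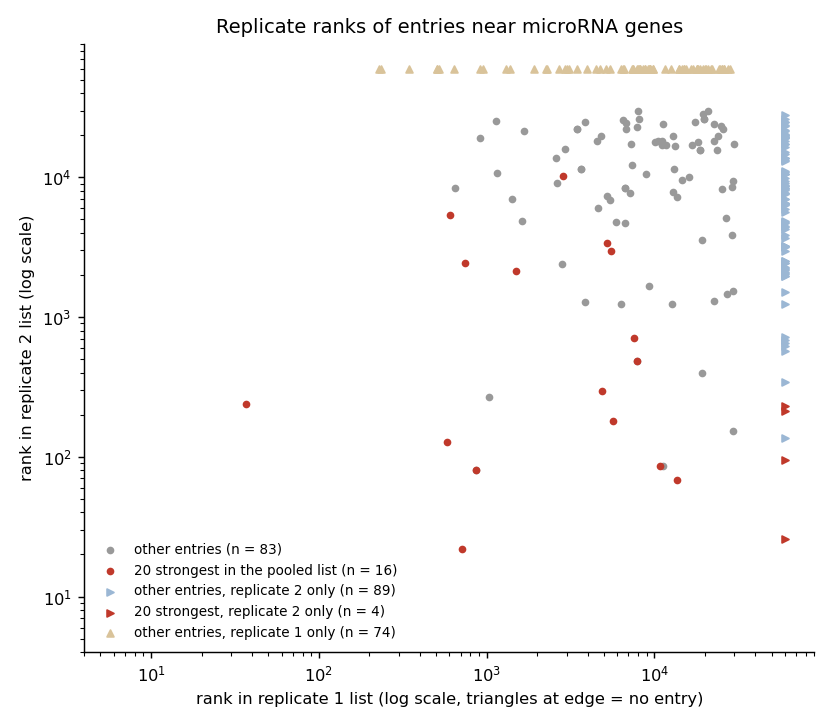
Rank in the replicate 1 list (x axis, log scale) and in the replicate 2 list (y axis, log scale) of the entries near microRNA genes, with entries found in 1 list alone as triangles at the edges. Of the 20 strongest in the pooled list (red), 16 have both ranks and 4 were in replicate 2 alone, and mir-1824 stands at the far left with ranks of 37 and 238.

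By the sum of both ranks, the best ranked loci were mir-1824 (37 and 238), mir-86 (578 and 127), mir-2216 (713 and 22) and mir-71 (871 and 80). At mir-1824 the replicate 1 summit lay 154 bp from the pooled one. At mir-71 the ranks of 871 and 80 belong to replicate entries that meet 2 overlapping pooled entries, of signal 40.6 and 14.7. Of the 5 IDR peaks, therefore, mir-2216, mir-71 and mir-86 had a rank under 1000 in both lists, mir-354 had one in replicate 2 alone and mir-5549 had no replicate 1 rank.

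Several loci carried several entries. The mir-52 locus had 6, with pooled signals of 21.3, 28.9, 17.7, 11.4, 17.8 and 16.9 from 1795 bp upstream to 1996 bp downstream of the microRNA. All 6 lay in intergenic sequence, 7776 to 11567 bp from the nearest coding 5′ end. The entry 575 bp upstream (17.7) had the best summed replicate ranks of these, 1034 and 269. The replicate summits lay 249 and 98 bp from the pooled one, so the replicate 1 match is loose. The 5 entries of mir-58a had pooled signals of 16.8, 23.9, 13.0, 23.2 and 13.1, all within Y67D8A.2. Those of 23.9 and 13.0 overlap and met the same replicate entries, ranked 7906 in replicate 1 and 488 in replicate 2. The 5 entries of mir-228 had 10.5, 20.7, 15.6, 11.1 and 12.8, with the nearest coding 5′ end 9370 bp away or farther.

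The host ppfr-1 held entries of both mir-71 and mir-2. The 5 entries of mir-71 had pooled signals of 14.7, 40.6, 18.1, 21.5 and 9.64, all in introns, and the 5 of mir-2 had 22.6, 13.7, 13.2, 14.5 and 10.1. At let-7 the 4 entries had signals of 12.1, 21.4, 11.7 and 10.03. The strongest, with its summit at 14746014, lay 693 bp upstream of the let-7 record and 1289 bp upstream of C05G5.2. That record is long (14743590 to 14745321), and the mature strand lies within it at 14744234 to 14744255, farther from the summit. The strongest entry ranked 963 in the pooled list and 2239 in replicate 2, with no replicate 1 entry.

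Among the heterochronic microRNAs, which time larval development, 3 of 6 had an entry. These were let-7 (strongest entry 21.4), mir-237 (18.2) and mir-84 (17.2), while lin-4, mir-48 and mir-241 had none within 2 kb. The mir-237 summit lay 1703 bp downstream of the microRNA 5′ end, with a tRNA, snRNA or snoRNA gene within 300 bp. The mir-84 summit lay 1911 bp downstream, in a coding exon of nhx-1. These 2 entries may thus belong to other genes, which was not tested. None of the 3 strongest entries met a replicate 1 entry, and their replicate 2 ranks were 2239, 2418 and 684. Of 3 other let-7 relatives, mir-793 had an entry of 14.1.

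The mir-51 family, named above by its seed, had entries at 6 of 6 genes. The mir-52 entry reached 28.9, mir-51 and mir-53 share one of 18.1, and mir-54, mir-55 and mir-56 share one of 13.4. The mir-64 family had entries at 5 of 5, but mir-229, mir-64, mir-65 and mir-66 share an entry of 20.4 in an intron of gcn-1, 20045 bp from its 5′ end, and mir-63 had 9.19. The mir-35 family had entries at 8 of 8, yet mir-35 to mir-41 share a single weak entry of 9.75 (rank 25491), 262 bp from the 5′ end of Y62F5A.9, and mir-42 had 10.3. A count of genes in a cluster is thus often a count of 1 site.

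Of the 6 bantam family genes in the list, 3 had an entry, mir-58a with 23.9, mir-80 with 15.3 and mir-82 with 15.3. The list did not include mir-58c, which carries the mir-80 seed and had no entry. In the mir-2 list 5 of 5 had one, led by mir-2 with 22.6 and followed by mir-43 (10.3), mir-797 (9.98) and mir-250 (9.06). In the mir-44 list 6 of 6 had one, from 9.06 to 13.996, and mir-42, mir-43 and mir-44 share the entry of 10.3. These lists overlap, as mir-42 is also in the mir-35 list, and mir-43 and mir-61 are in both the mir-2 and mir-44 lists. Their members were not checked by seed, so the counts are of listed genes and not of seed families.

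Of the neuronal microRNAs 4 of 5 had an entry, mir-71 (40.6), mir-273 (17.6), mir-791 (11.8) and mir-124 (10.7), and lsy-6 had none. Of mir-1, which acts in muscle, and mir-240 and mir-786, mir-1 had an entry of 16.7. Of the microRNAs linked to stress, ageing or the Hox clusters 8 of 8 had an entry. The strongest were mir-71 (40.6, in the neuronal list too), mir-228 (20.7) and mir-239a and mir-239b, which share one of 19.7. Over all microRNA genes the share with an entry was 68.2%, and with lists of 3 to 8 genes, several sharing an entry, none of these counts was tested.

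**Figure D5:**
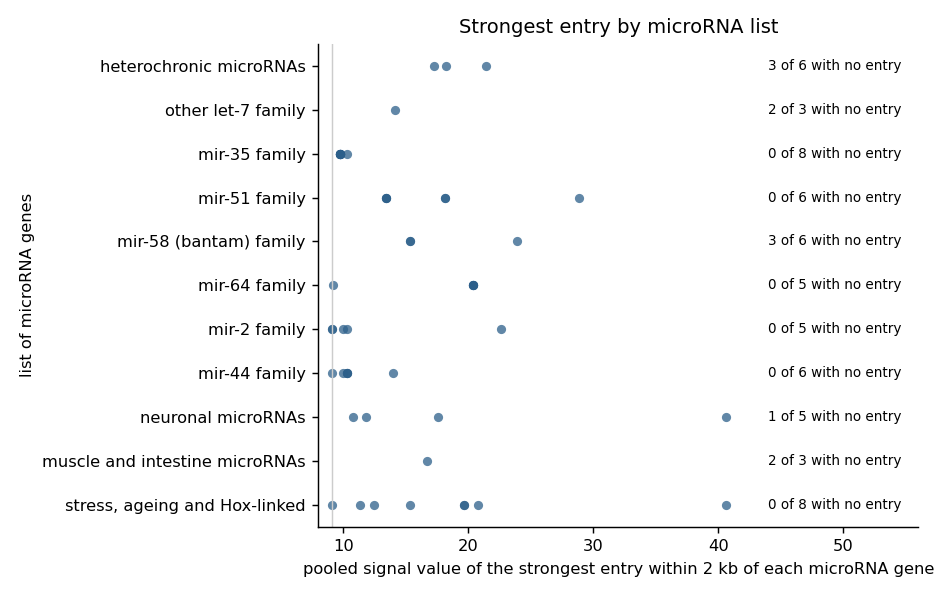
Pooled signal value of the strongest entry within 2 kb of each microRNA gene (x axis), one list a line, where darker points are genes that share an entry and the grey line marks the weakest entry (9.06). The mir-35 family sits at 9.75 to 10.3 and mir-71, which is in 2 lists, at 40.6, and the text at the right counts genes with no entry.

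Motifs were searched within 100 bp of the summit, on both strands. The Meis hexamer TGACAG was in 12 windows (4.24%, interval 2.21 to 7.29%), against 6.397% of all pooled windows, and its core TGACA, which every hexamer contains, in 77 (27.2%, against 32.4%). The Hox-Pbx motif TGATNNAT was in 14.1% (against 15.4%), the GATA motif AGATAA in 14.1% (against 12.4%) and GAGAGA in 38 (13.4%, against 10.8%). Among the 20 strongest, the hexamer was in 0, which allows a share of about 15% by an approximate limit of 3 counts, not an exact interval. The core was in 3 of the 20, at mir-71, mir-86 and mir-8209, and the GATA motif was in 6 (30%). Among entries ranked 1000 or better, the hexamer was in 0 of 23 near microRNA genes, against 8.1% of the 1000 in all. In the same ranks the core was in 13.0%, against 35.5% in all, and the GATA motif in 26.1%, against 11.4% in all.

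The GAGAGA repeat was in 11 of the 20 strongest (55%). Among entries ranked 1000 or better it was in 11 of 23 near microRNA genes (47.8%), against 271 of the 1000 in all (27.1%). In the ranks past 1000 and up to 10000 the shares were 12.4% near microRNA genes and 11.6% in all, and past 10000 they were 9.03% and 9.60%. Within the first 1000 ranks, it was in 8 of 15 entries farther than 1 kb from a coding 5′ end and in 3 of 8 nearer ones, against 27.4% and 26.8% of all entries there. The median GC content of these 23 windows was 40.8%, against 37.3% for the 1000. Every 31-base word was unique in the genome across all 20 strongest entries, while the run at mir-228 shown above left 85.6% of words unique; the part of the repeat in these signals was not tested.

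Below the 20 strongest, the hexamer lay 36 bp from the summit at mir-62 (pooled signal 21.1, rank 1035), in the window printed above. That summit was 941 bp upstream of the host ugt-50, a glucuronosyltransferase gene, and it ranked 137 in replicate 2 with no replicate 1 entry. The hexamer also lay 4 bp from the summit at mir-237 (18.2), where a tRNA, snRNA or snoRNA gene lay within 300 bp. Whether that hexamer is part of the small RNA gene was not tested, so this match cannot be read as a Meis site. At a second mir-86 entry (19.0, rank 1895) the hexamer lay 44 bp from the summit. The mir-62 entry and the second mir-86 entry were singled out after their values were seen.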

How the data were processed

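UNC-62 ChIP-seq lists of 2 biological replicates were used in the build ce11, as deposited: 1 list per replicate, 1 called on the pooled replicates and 1 thresholded by IDR (119 peaks). The signal value is the authors' own enrichment per entry, deposited with no stated scale, and served here for ranking and description. The deposited −log10 q-value was used for 1 alternative ranking. The labels do not state which aligner or peak caller was used, nor the cutoff behind the IDR list. With no read counts in the lists, depth is unknown, and the control libraries were not analysed here. Each list but the IDR list has 30000 entries of fixed width (336 bp, or 370 bp in replicate 1). The ce10 lists were not used.

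MicroRNA genes (261), coding genes and transcripts came from Ensembl release 115 for WBcel235, whose gene identifiers all matched RefSeq; 1 name, let-7, was taken from RefSeq. The host of a microRNA is a coding gene that spans it. Replicate entries were matched to pooled entries by an overlap of 1 bp or more, keeping the best rank. Shares carry exact 95% binomial intervals, which cover counting error only, and no tests were run. The functions were checked on simulated data.

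The members and lists were chosen with earlier results of these data known. The text names the genes of the 20 strongest entries, IDR peaks, up to 4 listed microRNAs per list and the 5 best summed replicate ranks; others are said to be chosen later. The names mir-58, mir-1834, mir-2209 and mir-239 in the lists were not matched, but mir-58a, mir-2209a, mir-239a and mir-239b were. Alternatives varied distances, list length, overlap, replicate, motif window and ranking. The tools were pandas 2.3.3, numpy 2.4.6 and scipy 1.17.1 under Python 3.11.15, with matplotlib 3.10.9 for plots.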

Additional observations from a re-analysis of the deposited data

How the results depend on the processing

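Of 54 alternatives, 28 left a value within its interval or a count within 1.5 times, and 26 moved it; 2 of the 54 were chosen after seeing the data. Within 500 bp of a microRNA 5′ end there were 68 entries at 65 genes, 88.2% of them nearer to the microRNA and 1 an IDR peak. Within 1 kb there were 157 entries, 81.5% nearer and 3 IDR peaks, and within 5 kb 656 entries with a median signal of 12.1 and 45.9% nearer. The counts follow from the distance itself. The 10000 strongest pooled entries held 128 near 109 microRNA genes, with a median of 15.6.

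With 1 replicate left out, the median signal was 7.36 to 7.46, on the replicate lists' own scale. The number of entries within the length of the IDR list, an alternative chosen after seeing the data, was 1 without replicate 2 (the replicate 1 list, near mir-1824) and 6 without replicate 1. Above the median of the IDR peaks lay 3. The share met by both replicates was 24.7% with an overlap of 50%, 17.3% with summits within 100 bp and 11.3% with the 10000 strongest replicate entries. The share at coding 5′ ends was 17.7% within 500 bp, 45.2% within 2 kb and 37.8% with all transcript starts, when 66.8% were nearer to the microRNA. The Meis hexamer was in 2.12% of windows of 50 bp on each side and in 9.89% of windows of 250 bp. The cause of the other shifts was not tested. No paired analysis was possible because there was 1 group. Depth is unknown, so a site missing from a list was not shown to be unbound.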

Other observations

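Some replicate entries near microRNA genes met no pooled entry. Replicate 1 had 284 entries within 2 kb of a microRNA 5′ end, of which 109 met none, and replicate 2 had 312, of which 119 met none. The strongest of these in replicate 1 lay 273 bp downstream of the 5′ end of mir-4934, with a signal of 13.3 and rank 752, and 546 bp from the 5′ end of mtr-4, which encodes an RNA helicase. The strongest in replicate 2 lay 1866 bp downstream of the 5′ end of mir-124, a neuronal microRNA, with a signal of 11.9 and rank 2081. Of these, 1 entry of replicate 1 and 0 of replicate 2 ranked 1000 or better. The entry at mir-2219 ranked 228 in replicate 1, second to mir-1824 among those near microRNA genes, and the pooled entry at mir-2219 had a signal of 11.3. These loci were chosen after their values were seen.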
